A study of Gallus gallus with 24 samples.

Results

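Messenger RNA of spliceosome, hnRNP and SR proteins was examined in the heart and liver of chickens exposed to salinomycin (Sal), a polyether ionophore given in feed against coccidia. The genes were taken from the count table by symbol, as every row whose name starts with HNRNP, SRSF, SF3A, SF3B, SNRP or PRPF (all but HNRNP and SNRP followed by a digit). The rule found 56 of 15051 genes and used no measured value. They were 16 hnRNP genes, 11 SR protein genes, 8 genes of the SF3A and SF3B complexes, 10 genes of Sm and other snRNP polypeptides and 11 PRPF genes. The Sal-exposed birds received feed with 10.5 mg Sal per kg during weeks 4 and 5, an estimated daily dose of 0.9 mg per kg body weight, and the control birds received feed without Sal. The methods describe the birds as female broilers, and they were sampled at the end of week 5. There were 6 Sal-exposed and 6 control libraries from each tissue and 24 libraries in all. Whole tissue pieces were sequenced, so fewer cells of a type and less RNA per cell cannot be told apart.

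Introns are cut out of pre-mRNA by the spliceosome, which is assembled anew on each intron from small nuclear ribonucleoproteins (snRNPs). Most snRNPs hold a small nuclear RNA within a ring of Sm proteins. The SF3A and SF3B complexes belong to the snRNP that recognizes the branch point. Most PRPF proteins act in the tri-snRNP that brings in the catalytic core. SR proteins bind exons and recruit these particles to splice sites, and hnRNPs coat nascent transcripts and often hold splice sites back, so that the balance of both classes helps to set which exons a tissue keeps.

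The libraries held 31.4 to 44.5 M counts on genes each, and all 56 members passed the filter on low counts in each comparison. Expression is given as TMM-normalized CPM, the counts of a gene scaled to the size of its library, which compares libraries and not genes of different length. A member was called upregulated or downregulated at an adjusted p (p-adj) of at most 0.05 in edgeR's quasi-likelihood test, adjusted over all genes tested. The labelled tissues were checked against their defining markers. *TNNT2*, the cardiac troponin T gene, had at least 2610 CPM in each heart and at most 21.2 CPM in each liver, and *ALB*, the albumin gene, had at least 55879 CPM in each liver and at most 67.1 CPM in each heart. The share of counts on the 16 mitochondrially encoded genes was 40.7% to 79.6% in Sal-exposed hearts, 38.6% to 47.9% in control hearts, 6.92% to 30.4% in Sal-exposed livers and 5.21% to 26.5% in control livers. Its values are given beside some of the results with which it moved.

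One library of each tissue stood apart in a member gene. *HNRNPKL* lay on an unplaced scaffold in the deposited table, and its symbol is placed on chromosome W, the chromosome carried by female birds, in the RefSeq table of GRCg7b. It had 10 counts in Sal-exposed heart 3, or 0.241 CPM, against 30.9 to 32.7 CPM in the other Sal-exposed hearts. Sal-exposed liver 3 had 0 counts, which allows up to 0.0592 CPM at 3 counts, a limit of counting error only. The other Sal-exposed livers had 21.1 to 26.1 CPM and the control livers 9.27 to 22.3 CPM. Both libraries were also low in the summed CPM of the genes on chromosome W, with 104.9 in Sal-exposed heart 3 against 921 to 1226 in the other Sal-exposed hearts and with 124.2 in Sal-exposed liver 3 against 593 to 905 in the other Sal-exposed livers. Control hearts had 973 to 1072 and control livers 823 to 981. Most of the other Sal-exposed livers thus also lay below all control livers (p = 0.0108 by exact permutation of all 12 livers). *HNRNPK* on chromosome Z, the gene of a protein that binds C-rich RNA, was highest of its tissue in these libraries, at 87.6 CPM in Sal-exposed heart 3 and 93.2 CPM in Sal-exposed liver 3. The summed CPM of chromosome Z was 19142 in Sal-exposed heart 3 and 12929 to 13871 in the other Sal-exposed hearts. It was 25290 in Sal-exposed liver 3 and 18467 to 21879 in the other Sal-exposed livers, while control livers reached 27783. The methods describe the birds as female, and the labels do not say whether the 2 libraries numbered 3 came from one bird. The log2FC of *HNRNPKL* was -0.22 in the heart and 0.17 in the liver with all libraries, and without library 3 it was 0.05 ± 0.08 (SE) in the heart (p-adj = 0.790) and 0.46 ± 0.25 (SE) in the liver (p-adj = 0.249). The 2 genes were singled out after their values had been seen, and reads that fit both may have been divided between them by the authors' quantification.

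**Figure D1:**
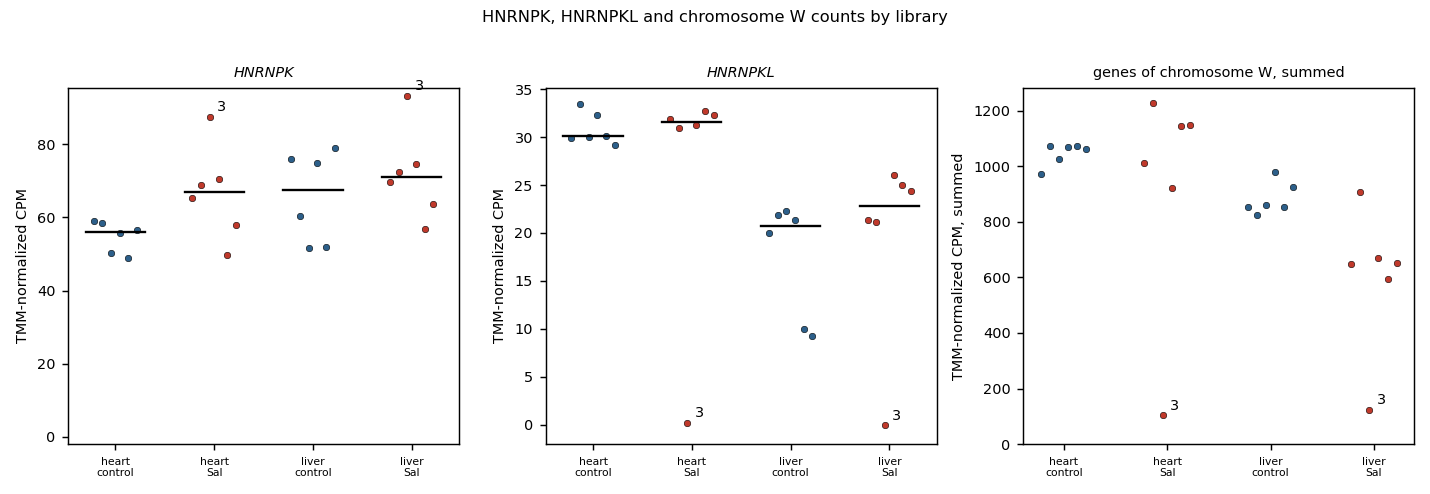
TMM-normalized CPM of *HNRNPK* (left), *HNRNPKL* (middle) and of all genes on chromosome W summed (right), with 1 point per library, the group median as a line in the first 2 panels and Sal-exposed library 3 of each tissue marked by its number. Sal-exposed heart 3 at 0.241 CPM and Sal-exposed liver 3 at 0 CPM lie below all other libraries for *HNRNPKL* and above all others for *HNRNPK*.

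In the heart, 0 of the 56 members were called by edgeR. Only 0.185% of all 13526 genes tested were called there, so this count alone says nothing about the members. At an unadjusted p under 0.05 there were 12 members, 10 higher and 2 lower, or 21.4% of the members against 17.2% of all genes (10.1% higher and 7.1% lower). The median log2FC was 0.03 over the members and -0.02 over all genes. Without Sal-exposed heart 3, 1 member was called, *SF3B6* (log2FC = 1.02 ± 0.23 (SE), p-adj = 0.0488), and 270 of all genes were called in place of 25. DESeq2 called 5 members, all higher in the Sal-exposed hearts, at a background of 4.85% of genes (3.52% higher), and edgeR with surrogate variables also called 5, all higher, at a background of 7.34%.

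The member of lowest p in each of the 5 groups was higher in the Sal-exposed hearts, and none of these passed in edgeR. The groups as a whole were mixed. Members higher and lower numbered 2 and 9 among the SR protein genes (median log2FC = -0.14) and 8 and 8 among the hnRNP genes. They numbered 5 and 3 for SF3A and SF3B, 8 and 2 for Sm and snRNP and 6 and 5 for PRPF genes. *SF3A2* encodes a subunit of SF3A, the complex that ties the branch-point particle together. It ranged from 27.1 to 62.4 CPM (median 36.3) in Sal-exposed hearts and from 21.966 to 26.3 CPM (median 24.5) in control hearts (log2FC = 0.68 ± 0.18 (SE), p-adj = 0.105). Every Sal-exposed heart was above every control heart, and Sal-exposed hearts 1, 2 and 4 were the highest. *SRSF4*, an SR protein gene, ranged from 24.2 to 37.1 CPM (median 27.8) in Sal-exposed and from 19.5 to 23.8 CPM (median 22.4) in control hearts (log2FC = 0.40 ± 0.11 (SE), p-adj = 0.118). Its groups did not overlap either. *SF3B4*, whose product binds pre-mRNA next to the branch point, was the only other member without overlap in the heart (log2FC = 0.42 ± 0.12 (SE), p-adj = 0.131). These 3 members are 5.36% of the members, and 2.61% of all genes had groups without overlap in the heart (1.64% with the Sal-exposed hearts higher).

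*PRPF3* encodes a protein of the U4/U6 snRNP and ranged from 24.2 to 41.2 CPM (median 31.1) in Sal-exposed and from 21.7 to 25.9 CPM (median 23.8) in control hearts (log2FC = 0.41 ± 0.12 (SE), p-adj = 0.134). Only Sal-exposed heart 3 reached into the control range. *SNRPA1*, the gene of a protein that binds U2 snRNA, ranged from 22.8 to 45.9 CPM (median 26.5) in Sal-exposed and from 17.1 to 25.7 CPM (median 19.7) in control hearts (log2FC = 0.51 ± 0.17 (SE), p-adj = 0.157). Sal-exposed heart 2 stood above all other hearts, and the groups overlapped between 22.8 and 25.7 CPM. *HNRNPD*, which encodes an hnRNP that also binds AU-rich elements of mRNA, ranged from 27.8 to 42.3 CPM (median 33.2) in Sal-exposed and from 21.8 to 30.8 CPM (median 27.8) in control hearts (log2FC = 0.33 ± 0.12 (SE), p-adj = 0.178). Most Sal-exposed hearts were above all control hearts, and Sal-exposed heart 3 was the exception.

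*SF3A2*, *SF3B6*, *SF3B4* and *PRPF3* were highest in Sal-exposed hearts 1, 2 and 4, which had the highest shares of mitochondrial counts. That share was 72.0% in Sal-exposed heart 1, 49.5% in heart 2 and 79.6% in heart 4, and 40.7% to 47.9% in the other Sal-exposed hearts. Its mean was 55.4% ± 16.3 in Sal-exposed and 41.6% ± 3.51 in control hearts (SD, n = 6 each, p = 0.0368 by exact permutation). The share thus went with exposure in the hearts. With the share as a covariate, the log2FC of *SF3A2* in the heart was 0.28 ± 0.12 (SE, p-adj = 0.260) and that of *SF3B6* was 0.53 ± 0.25 (SE, p-adj = 0.291). In the same fit it was 0.20 for *SF3B4* (p-adj = 0.343), 0.19 for *PRPF3* (p-adj = 0.349) and 0.23 for *SRSF4* (p-adj = 0.255). *HNRNPD* had a log2FC of 0.18 (p-adj = 0.437) and *SNRPA1* of 0.48 (p-adj = 0.252). Without Sal-exposed hearts 1 and 4, *SF3A2* had a log2FC of 0.41 ± 0.13 (SE, p-adj = 0.145) and *SF3B6* of 0.70 ± 0.27 (SE, p-adj = 0.191). The summed level of 18 cardiomyocyte marker genes was also higher in Sal-exposed hearts, at 34222 to 48040 CPM against 28690 to 34961 CPM in the control hearts (p = 0.00649 by exact permutation of libraries, two-sided), and that of 9 fibroblast and matrix genes was lower, at 1866 to 2855 against 2697 to 4163 CPM (exact permutation, p = 0.0108). That of 22 hepatocyte genes overlapped, at 310 to 540.1 against 262 to 780 CPM (exact permutation, p = 0.394), although 3 of its 18 genes tested were upregulated and its median log2FC was 1.67. The part of these cell types in the heart values was not tested.

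In the liver, 13 of the 56 members were called, 6 upregulated and 7 downregulated by Sal. This is 23.2% of the members, beside 15.4% of all 13587 genes tested in the liver (7.57% upregulated and 7.84% downregulated). The upregulated members were *SRSF2*, *SRSF10*, *HNRNPA2B1*, *PRPF6*, *PRPF4B* and *SF3B1*, and *SF3A2*, *SF3B6*, *SF3B4*, *PRPF8*, *PRPF3* and *HNRNPL* were among the downregulated ones. By group, 4 of 8 SF3A and SF3B genes, 5 of 11 PRPF genes, 2 of 11 SR protein genes, 2 of 16 hnRNP genes and 0 of 10 Sm and snRNP genes were called. With an absolute log2FC of at least 1 as well, 3 members remained, *SRSF2*, *SF3A2* and *SF3B6*, at a background of 7.01%. Since the calls went both ways, the median log2FC of the members was -0.02, and that of all genes was -0.01. The groups did not overlap in 4 members, *SRSF2*, *HNRNPA2B1*, *PRPF8* and *HNRNPL*, at a background of 5.73% of genes (3.39% higher and 2.33% lower).

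The liver calls depended on single libraries. The count was 8, 7, 7 and 5 without Sal-exposed liver 1, 3, 5 or 6 and 8, 7 and 8 without control liver 1, 4 or 5, and 12 to 14 without each of the other livers. The calls over all genes, 2093 with every liver, moved in the same way, to between 896 and 1511 in the former fits and between 1732 and 2833 in the latter. *SRSF2*, *SRSF10*, *HNRNPA2B1*, *PRPF8* and *SF3A2* were called in each of these 12 fits. DESeq2 called the same 13 members, at a background of 23% of genes. With 4 surrogate variables in the edgeR fit, 0 members and 0 of all genes were called, and 11 members and 2497 of all genes had an unadjusted p under 0.05.

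**Figure D2:**
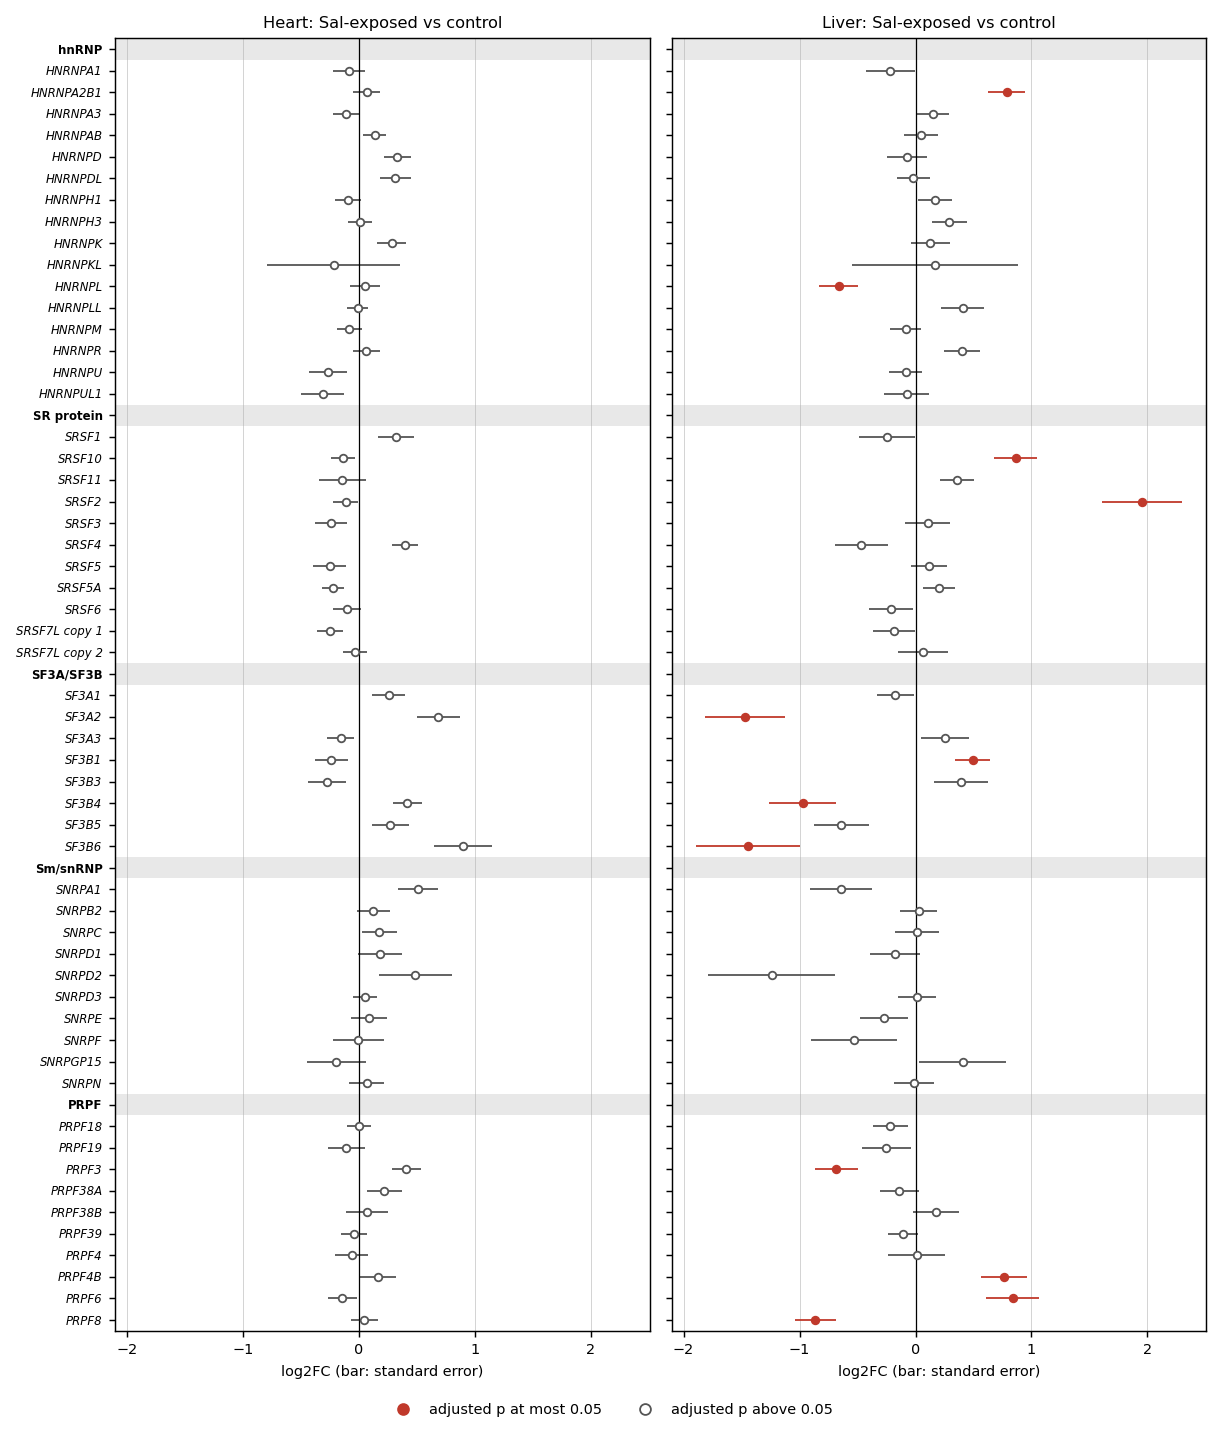
log2FC of 55 of the 56 members in Sal-exposed relative to control hearts (left) and livers (right), with bars of 1 standard error from edgeR, ordered by group, where filled red points have an adjusted p of at most 0.05. Of the 55 points, 0 are filled in the heart and 12 in the liver, 6 above and 6 below 0.

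Among the SR protein genes, *SRSF2* had the largest change. Its product is a core SR protein of nuclear speckles that binds exonic enhancers. *SRSF2* (chromosome 18, 4866605 to 4867923) ranged from 13.3 to 27.0 CPM (median 22.9) in Sal-exposed livers and from 1.29 to 8.63 CPM (median 5.84) in control livers (log2FC = 1.95 ± 0.35 (SE), p-adj = 0.00544). Every Sal-exposed liver was above every control liver, with Sal-exposed liver 2 lowest of its group and control liver 6 lowest of all. In the hearts it ranged from 17.6 to 22.4 CPM (median 19.3) in Sal-exposed and from 17.3 to 24.3 CPM (median 21.6) in control birds (log2FC = -0.11 ± 0.11 (SE), p-adj = 0.633), and these groups overlapped.

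*SRSF10* encodes an SR protein known in mammals to act as a general repressor of splicing in heat shock. In the liver *SRSF10* (chromosome 23, 5979008 to 5989181) ranged from 18.3 to 29.6 CPM (median 26.0) in Sal-exposed and from 10.3 to 18.3 CPM (median 12.1) in control birds (log2FC = 0.86 ± 0.18 (SE), p-adj = 0.0101). The groups met only where Sal-exposed liver 2 and control liver 6 both lay near 18.3 CPM. In the hearts it ranged from 15.994 to 23.6 CPM (median 20.9) in Sal-exposed and from 21.3 to 23.2 CPM (median 22.7) in control birds (log2FC = -0.14 ± 0.10 (SE), p-adj = 0.519). The other 9 SR protein genes had a log2FC between -0.47 (*SRSF4*, p-adj = 0.176) and 0.36 (*SRSF11*, p-adj = 0.106) in the liver and were not called. Values of *SRSF5* and *SRSF5A*, and of the 2 adjacent genes both named *SRSF7L*, are uncertain as far as reads fit more than 1 of them.

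Among the hnRNP genes, *HNRNPA2B1* was upregulated and *HNRNPL* downregulated. *HNRNPA2B1* (chromosome 2, 32089064 to 32098964) encodes a pair of abundant hnRNP isoforms. It ranged from 93.0 to 113 CPM (median 105) in Sal-exposed and from 48.1 to 74.7 CPM (median 60.5) in control livers (log2FC = 0.79 ± 0.16 (SE), p-adj = 0.00783). The Sal-exposed livers were close to each other and all above the control livers. *HNRNPL* (chromosome 38, 58689 to 64514) encodes a protein that binds CA-rich RNA. It ranged from 57.1 to 93.8 CPM (median 76.9) in Sal-exposed and from 97.8 to 146 CPM (median 122) in control livers (log2FC = -0.66 ± 0.17 (SE), p-adj = 0.0192). All Sal-exposed livers were below all control livers, and the call was lost without Sal-exposed liver 5 (p-adj = 0.0525) or 6 (p-adj = 0.0565). In the heart the log2FC was 0.07 for *HNRNPA2B1* and 0.05 for *HNRNPL*, neither called, and with the mitochondrial share as a covariate that of *HNRNPL* was -0.12. The other 14 hnRNP genes were not called in the liver, with a log2FC between -0.22 (*HNRNPA1*, p-adj = 0.519) and 0.41 (*HNRNPLL*, p-adj = 0.152).

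The SF3A and SF3B genes, whose products hold the branch point of the intron, changed in both directions in the liver. *SF3A2* (chromosome 28, 2448309 to 2454518) ranged from 15.5 to 52.1 CPM (median 21.3) in Sal-exposed and from 29.7 to 107 CPM (median 89.4) in control livers (log2FC = -1.47 ± 0.35 (SE), p-adj = 0.0147). Sal-exposed livers 2 and 4 lay above control liver 2, and the other control livers were above all Sal-exposed ones. *SF3B6* (chromosome 3, 104033306 to 104036650) encodes the small subunit that touches the branch-point adenosine. It ranged from 3.83 to 13.8 CPM (median 5.93) in Sal-exposed and from 3.87 to 29.7 CPM (median 21.4) in control livers (log2FC = -1.45 ± 0.45 (SE), p-adj = 0.0423). Sal-exposed liver 4 stood apart above its group, and control livers 2 and 3 lay within the Sal-exposed range. *SF3B4* (chromosome 25, 676515 to 684367) ranged from 38.1 to 95.5 CPM (median 50.9) in Sal-exposed and from 65.4 to 186 CPM (median 114) in control livers (log2FC = -0.97 ± 0.29 (SE), p-adj = 0.0372). Sal-exposed livers 2 and 4 were again the highest of their group and control liver 2 the lowest of its own.

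*SF3B1* (chromosome 7, 9787442 to 9808233) encodes the largest SF3B subunit, which clamps the branch-site helix, and it was upregulated (log2FC = 0.49 ± 0.15 (SE), p-adj = 0.0438). *SF3B3*, an SF3B scaffold gene, had a log2FC of 0.39 (p-adj = 0.271) and *SF3B5* of -0.64 (p-adj = 0.0772) in the liver. *SF3A1* (-0.17, p-adj = 0.486) and *SF3A3* (0.25, p-adj = 0.433) had a smaller log2FC. The call of *SF3B6* was kept only without Sal-exposed liver 4 or control liver 2 or 3, and its p-adj reached 0.103 without Sal-exposed liver 6. That of *SF3B4* was lost without Sal-exposed liver 1, 3, 5 or 6 or control liver 1, 4 or 5 (highest p-adj = 0.0945), and that of *SF3B1* was kept only without Sal-exposed liver 2 or control liver 6 (highest p-adj = 0.0982).

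Of the 10 genes of Sm and other snRNP polypeptides, 0 were called in the liver by edgeR with all 12 libraries, by DESeq2 or by edgeR with surrogate variables, and 2 had an unadjusted p under 0.05, both lower, at a background of 31.5% of genes (16.1% lower). *SNRPA1* had the lowest p of this group and ranged from 13.3 to 23.5 CPM (median 17.7) in Sal-exposed and from 17.8 to 54.6 CPM (median 24.8) in control livers (log2FC = -0.64 ± 0.27 (SE), p-adj = 0.115). The groups overlapped, and control liver 6 stood far above the other livers. *SNRPD2*, a gene of the Sm ring chosen for its spread after its values had been seen, ranged from 8.22 to 42.0 CPM (median 15.7) in Sal-exposed and from 4.94 to 80.6 CPM (median 43.5) in control livers (log2FC = -1.24 ± 0.55 (SE), p-adj = 0.136). It had the highest coefficient of variation of the members in each of the 4 groups, 53.1% and 24.9% in Sal-exposed and control hearts and 66.3% and 69.4% in Sal-exposed and control livers. Without Sal-exposed liver 4 and control liver 2 it was called (log2FC = -1.90 ± 0.39 (SE), p-adj = 0.00759). Those were its highest Sal-exposed and its lowest control liver, so leaving them out widens the difference by itself. With the mitochondrial share as a covariate *SNRPD2* was not called (log2FC = -0.43 ± 0.41 (SE), p-adj = 0.523). The remaining 8 genes had a log2FC between -0.53 (*SNRPF*) and 0.41 (*SNRPGP15*) in the liver.

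Of the PRPF genes, 3 were downregulated and 2 upregulated in the liver. *PRPF8* (chromosome 19, 5829853 to 5848800) encodes the scaffold at the centre of the spliceosome's catalytic core. It ranged from 105 to 156 CPM (median 142) in Sal-exposed and from 189 to 348 CPM (median 248) in control livers (log2FC = -0.86 ± 0.17 (SE), p-adj = 0.00822). The groups did not overlap, and Sal-exposed liver 5 was the lowest. *PRPF3* (chromosome 25, 2292416 to 2303254) ranged from 22.9 to 36.5 CPM (median 27.8) in Sal-exposed and from 32.5 to 61.4 CPM (median 42.1) in control livers (log2FC = -0.68 ± 0.19 (SE), p-adj = 0.0257). Its highest Sal-exposed livers were 2 and 4 and its lowest control liver was 2, where the groups overlapped.

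*PRPF6* (chromosome 20, 9754802 to 9778007) encodes the protein that bridges the U5 and U4/U6 parts of the tri-snRNP. It ranged from 25.3 to 44.2 CPM (median 36.2) in Sal-exposed and from 8.97 to 26.8 CPM (median 19.8) in control livers (log2FC = 0.84 ± 0.23 (SE), p-adj = 0.0270). Only Sal-exposed liver 4 lay within the control range, and control liver 6 was the lowest. *PRPF4B* (chromosome 2, 65678316 to 65702133) encodes a kinase that phosphorylates PRPF proteins of the tri-snRNP. It ranged from 15.3 to 41.4 CPM (median 29.1) in Sal-exposed and from 14.998 to 19.4 CPM (median 16.4) in control livers (log2FC = 0.76 ± 0.20 (SE), p-adj = 0.0220), and only Sal-exposed liver 2 was below any control liver. The other 6 PRPF genes had a log2FC between -0.25 (*PRPF19*) and 0.17 (*PRPF38B*) in the liver. Calls were lost for *PRPF3* without Sal-exposed liver 1, 3, 5 or 6 or control liver 1 or 4 (highest p-adj = 0.0687), for *PRPF6* without Sal-exposed liver 3 or 6 or control liver 4 or 5 (0.0647) and for *PRPF4B* without Sal-exposed liver 6 (0.0565).

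**Figure D3:**
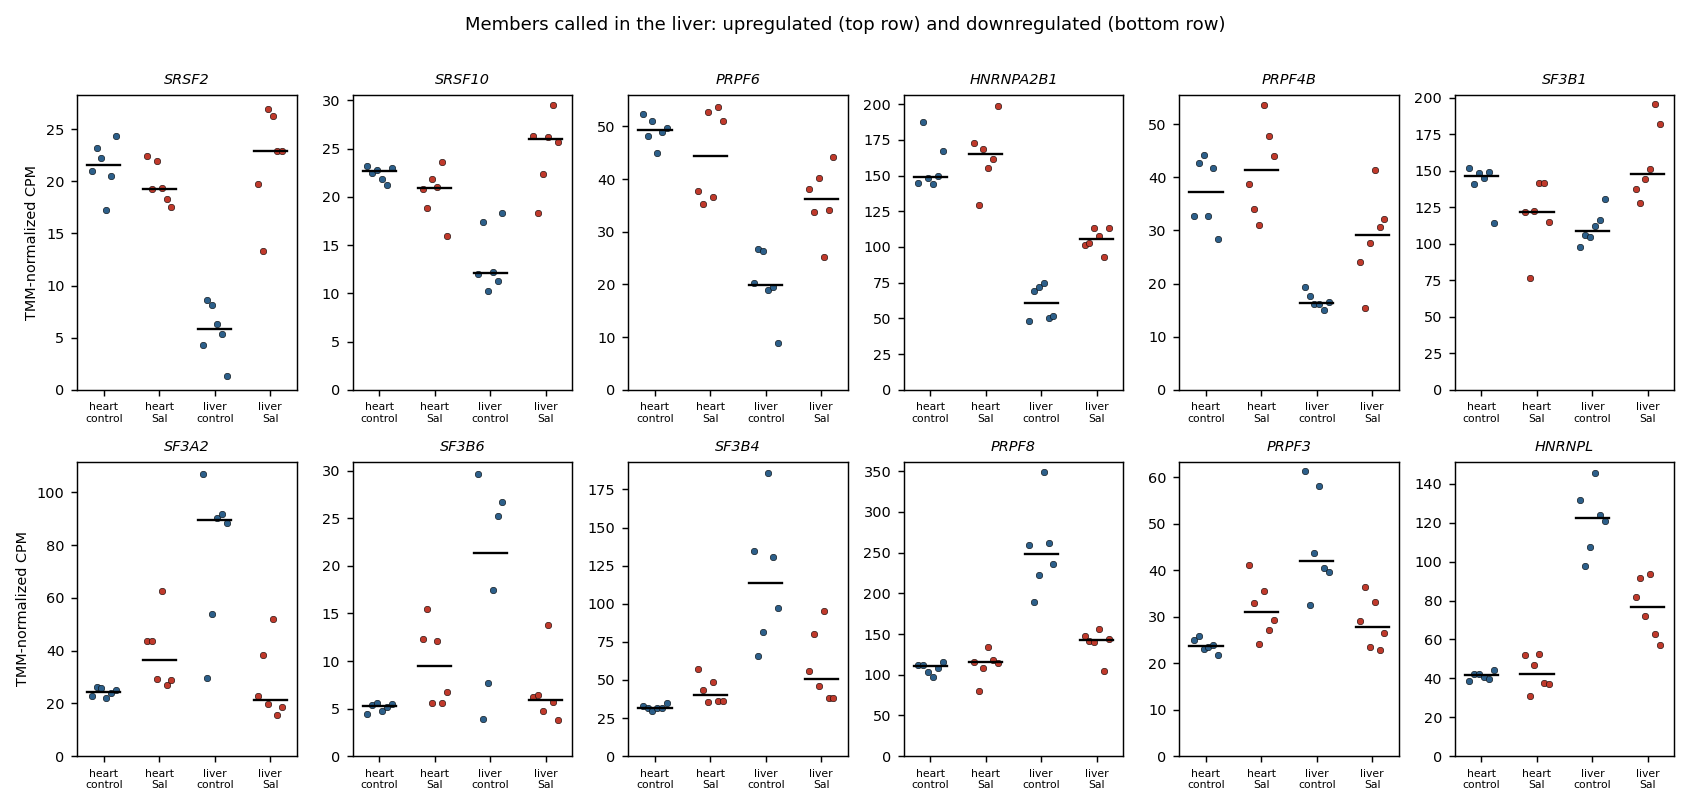
TMM-normalized CPM (from 0) of 12 of the 13 members called in the liver, upregulated in the top row and downregulated in the bottom row, in control (blue) and Sal-exposed (red) hearts and livers, with 1 point per library and the group median as a line. *SRSF2* lies at 13.3 to 27.0 CPM in Sal-exposed and 1.29 to 8.63 CPM in control livers, and its hearts overlap.

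Levels of *SF3A2* and *SF3B6* moved with the mitochondrial share of the liver libraries. Sal-exposed liver 4, with a mitochondrial share of 30.4%, had the highest *SF3A2* and *SF3B6* of its group, and control liver 2, with 5.21%, had the lowest of its own. *SF3B4* and *SNRPD2* were also highest in Sal-exposed liver 4 and lowest in control liver 2 within their groups. Among the control livers *SRSF2* went the other way, highest in control liver 2 (8.63 CPM) and lowest in control liver 6 (1.29 CPM, share 26.5%). In the Sal-exposed livers its lowest value was in liver 2 (13.3 CPM, share 10.9%), and liver 4 had 26.2 CPM. The mitochondrial share had a mean of 12.1% ± 9.10 in Sal-exposed and 17.2% ± 8.09 in control livers (SD, n = 6 each, p = 0.299 by exact permutation). It was 6.92% to 10.9% in the Sal-exposed livers other than liver 4. In the control livers other than liver 2 it was 9.68% to 26.5%. With the share as a covariate, *SF3A2* kept its call (log2FC = -1.11 ± 0.22 (SE), p-adj = 0.00887), whereas *SF3B6* did not (log2FC = -0.77 ± 0.28 (SE), p-adj = 0.0778). The other 11 members called in the liver kept their call as well, and 14 members were called in all. Over all genes 2042 were called with the share as a covariate and 2093 without it. Without Sal-exposed liver 4 and control liver 2, *SF3A2* and *SF3B6* were both called with a larger log2FC. It was -1.91 ± 0.26 (SE, p-adj = 0.00190) for *SF3A2* and -1.99 ± 0.32 (SE, p-adj = 0.00317) for *SF3B6*. The 2 livers left out had the highest share of the Sal-exposed and the lowest share of the control livers, so this fit does not separate the share from exposure. In that fit 15 members were called, with *SNRPD2*, *SF3B3* and *SF3A3* gained and *SF3B1* lost (p-adj = 0.0647). The calls over all genes also rose, from 2093 to 2423. For each gained member, and for *SF3A2* and *SF3B6*, these livers held the values of their groups that went most against the group difference. Leaving them out widens such a difference by itself, so the gained calls and larger log2FC are no added support. The summed level of 22 hepatocyte marker genes was lower in the Sal-exposed livers, at 128568 to 219143 CPM against 153869 to 338496 CPM in the control livers (p = 0.00649 by exact permutation), with 4 of the 22 downregulated and 0 upregulated. That of 18 leukocyte genes was 3177 to 4831 against 4086 to 6132 CPM (exact permutation, p = 0.0411), but their median log2FC was 0.06, with 1 upregulated and 2 downregulated. That of 6 erythrocyte genes was 65.3 to 237 against 176 to 738 CPM (exact permutation, p = 0.0216), with 2 downregulated. Genes of cardiomyocytes, 18 in number, were low in all livers and lower in the Sal-exposed ones, at 45.6 to 74.7 against 61.6 to 343 CPM (exact permutation, p = 0.00433), with 1 of 14 tested downregulated. The part of these cell types in the liver calls was not tested.

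**Figure D4:**
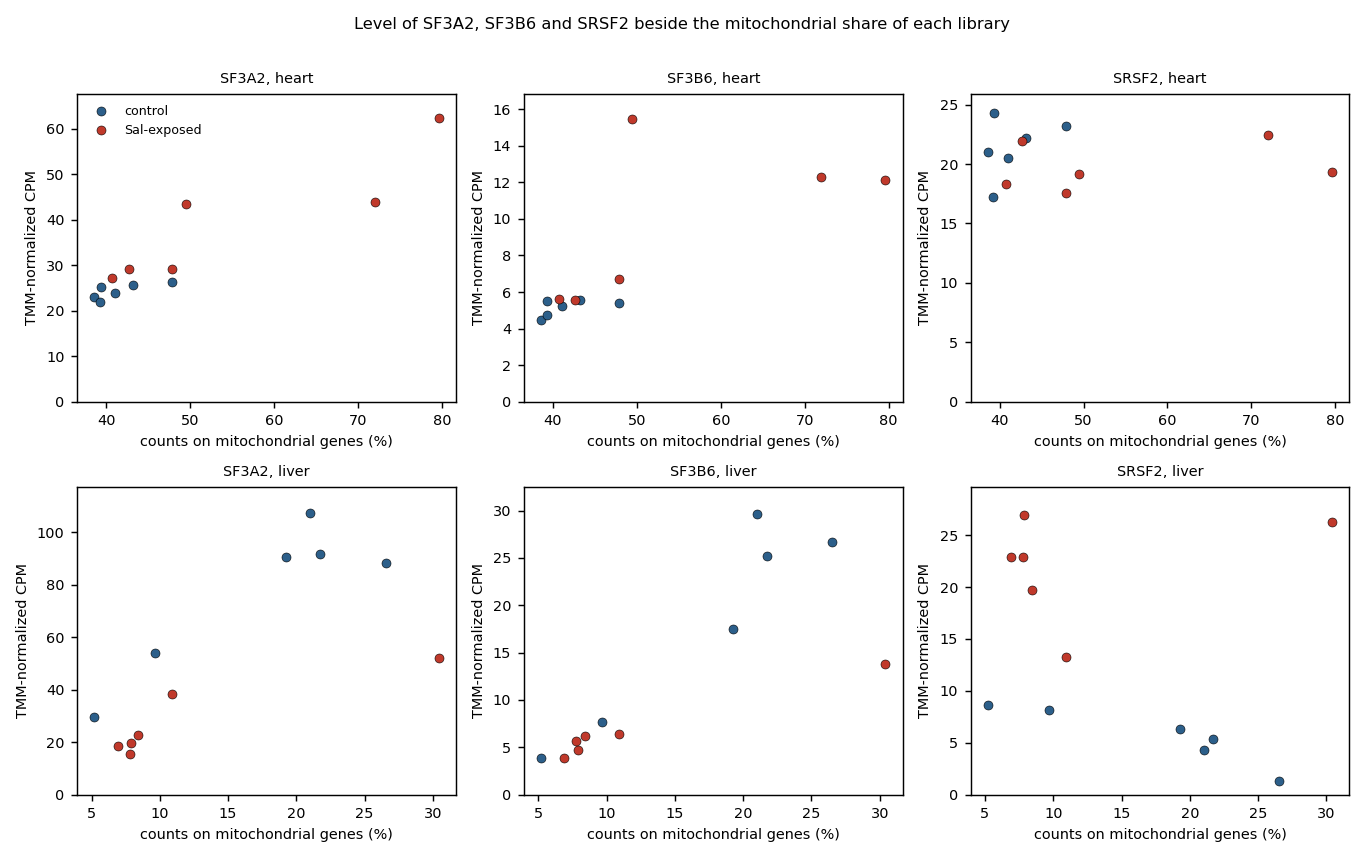
TMM-normalized CPM of *SF3A2*, *SF3B6* and *SRSF2* (from 0) against the percent of counts on mitochondrial genes in hearts (top) and livers (bottom), with 1 point per library. The Sal-exposed liver at 30.4% has the highest *SF3B6* of its group, 13.8 CPM, and *SRSF2* is higher in all Sal-exposed than in all control livers. Among the control livers *SRSF2* is lowest, 1.29 CPM, at the highest share, 26.5%.

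The response differed between the tissues for 16 of the 56 members in the test of the interaction, or 28.6% of the members beside 16.2% of all 14632 genes tested. Of these, 6 had a higher log2FC in the liver than in the heart and 10 a lower one, at backgrounds of 9.01% and 7.21%. The members of lowest p were *SRSF2* (log2FC = 2.11 ± 0.39 (SE), p-adj = 0.00126), *SRSF10* (log2FC = 1.07 ± 0.20 (SE), p-adj = 0.00148) and *SF3A2* (log2FC = -2.08 ± 0.40 (SE), p-adj = 0.00167), where the log2FC is the liver effect minus the heart effect. The effects of *SF3A2* had opposite signs, 0.68 in the heart and -1.47 in the liver, and so had those of *SF3B6*, 0.90 and -1.45. Neither heart effect was called in edgeR with all libraries. The mean mitochondrial share was higher in Sal-exposed than in control hearts (55.4% against 41.6%). In the livers it was lower in the Sal-exposed group (12.1% against 17.2%). The interaction fit did not hold the share as a covariate, and its part in these differences was not tested. *SF3B6* had 12.1 to 15.5 CPM in Sal-exposed hearts 1, 2 and 4, 5.54 to 6.74 CPM in the other Sal-exposed hearts and 4.45 to 5.55 CPM in control hearts. The other upward members were *PRPF6* (1.03, p-adj = 0.0157), *SF3B1* (0.80, p-adj = 0.00972), *HNRNPA2B1* (0.77, p-adj = 0.0111) and *SRSF5A* (0.49, p-adj = 0.0228). Other downward members were *SF3B6* (-2.26, p-adj = 0.00602), *SF3B4* (-1.33, p-adj = 0.00772), *SNRPA1* (-1.07, p-adj = 0.0228), *PRPF3* (-1.03, p-adj = 0.00332), *PRPF8* (-0.85, p-adj = 0.00700), *SF3B5* (-0.84, p-adj = 0.0426), *SRSF4* (-0.79, p-adj = 0.0218) and *HNRNPL* (-0.65, p-adj = 0.0290). *SF3B5*, *SNRPA1*, *SRSF4* and *SRSF5A* were called here and in neither tissue alone, and *PRPF4B* was called in the liver and not here (log2FC = 0.66, p-adj = 0.0765). The call of *SRSF5A* was lost with RLE scaling (0.41, p-adj = 0.0686) and with offsets on genomic span (0.27, p-adj = 0.245), and the span offsets also ended those of *HNRNPL* (p-adj = 0.0592) and *SF3B1* (p-adj = 0.0587). With surrogate variables, 8 of the 16 kept their call, and 1006 of all genes were called. The calls of *SF3B6* (-0.88, p-adj = 0.183), *SF3B4* (-0.76, p-adj = 0.151) and *SF3B5* (-0.21, p-adj = 0.626) were lost. So were those of *SNRPA1* (p-adj = 0.0746), *SRSF4* (0.125), *HNRNPL* (0.240), *HNRNPA2B1* (0.0848) and *SF3B1* (0.0769). Without Sal-exposed heart 3 and liver 3, 13 of the 16 kept their call, and *HNRNPL*, *SF3B5* and *SRSF5A* did not (p-adj = 0.0715, 0.0954 and 0.0634). In that fit 1769 of all genes were called in place of 2373. The call of *SF3B5* was lost in 17 of the 24 fits that left out 1 library, and that of *HNRNPL* without Sal-exposed heart 1, control heart 1, Sal-exposed liver 5 or 6 or control liver 4.

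Control hearts and control livers were compared to see how the members differ between unexposed tissues. Of the 56 members, 31 were called, 17 higher and 14 lower in the heart, or 55.4% of the members beside 68.8% of all 14121 genes tested (35.9% higher and 32.9% lower). With the mitochondrial genes left out of the scaling, 16 were higher and 20 lower, and 9786 of all genes were called in place of 9720. Groups did not overlap for 23 members, at a background of 52.9% of genes. *SNRPD2* had the largest absolute log2FC, with lower levels in the heart (-2.29 ± 0.50 (SE), p-adj = 0.00104). It was followed on that side by *SF3B4* (-1.78 ± 0.22 (SE), p-adj = 5.02e-06), *SF3B6* (-1.75 ± 0.38 (SE), p-adj = 0.00104) and *SF3A2* (-1.58 ± 0.24 (SE), p-adj = 3.85e-05). Higher in the heart were *SRSF2* (1.96 ± 0.34 (SE), p-adj = 1.66e-04), *HNRNPLL* (1.56 ± 0.16 (SE), p-adj = 9.18e-07), *HNRNPA2B1* (1.42 ± 0.16 (SE), p-adj = 2.26e-06) and *PRPF6* (1.34 ± 0.22 (SE), p-adj = 1.01e-04). *HNRNPLL* is a relative of *HNRNPL*, and the pair went in opposite directions, since *HNRNPL* was lower in the heart (-1.48 ± 0.11 (SE), p-adj = 4.89e-08).

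This comparison and that of Sal-exposed with control livers share the control livers, so their values for a member are not independent. A high or low level in the control livers alone moves both in the same direction. The members below are examples and not a count over all members. Side by side, *SRSF2* had a median of 5.84 CPM in control livers, 22.9 CPM in Sal-exposed livers and 21.6 CPM in control hearts, each on the scale of its own tissue. For *SF3A2* these medians were 89.4, 21.3 and 24.5 CPM. For *PRPF8* they were 248, 142 and 110.3 CPM.

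**Figure D5:**
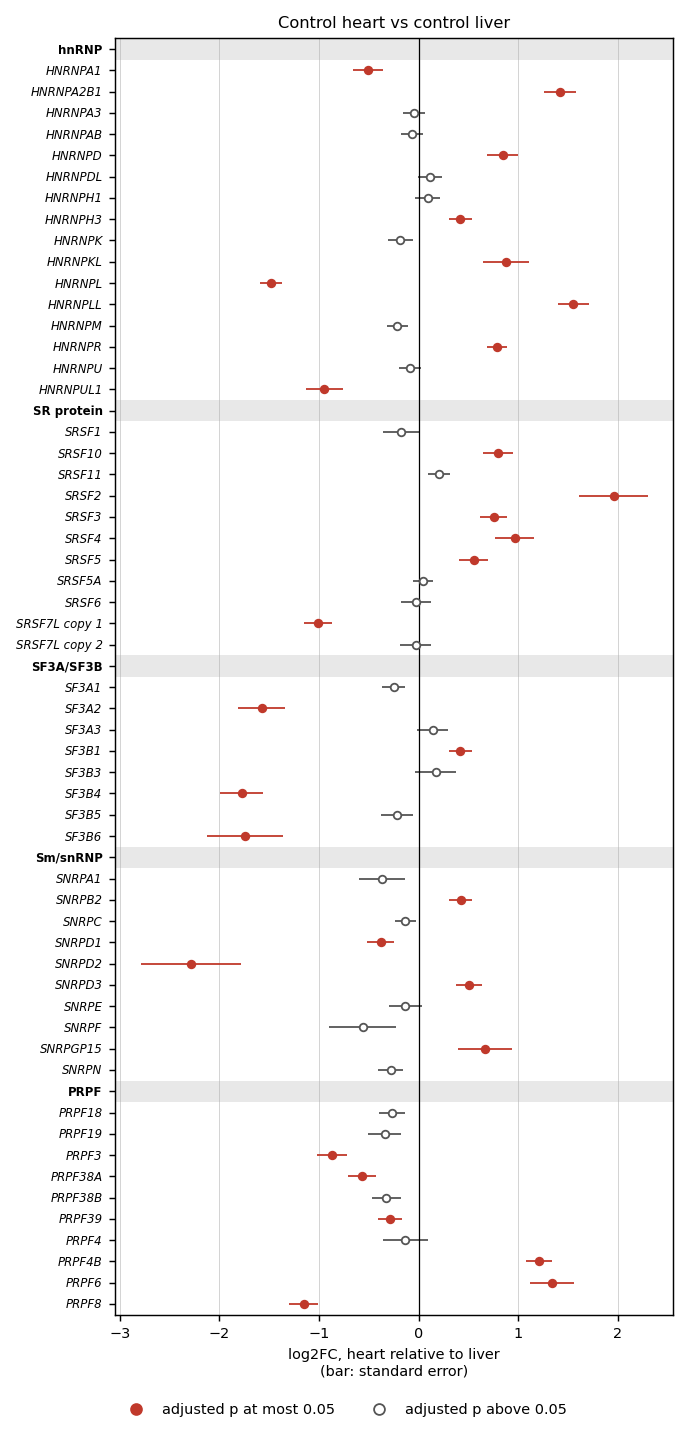
log2FC of 55 of the 56 members in control hearts relative to control livers, with bars of 1 standard error from edgeR, ordered by group, where filled red points have an adjusted p of at most 0.05. The 17 filled points right of 0 are led by *SRSF2* at 1.96 and the 13 left of 0 by *SNRPD2* at -2.29.

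The spread among birds differed by gene and group. The median coefficient of variation of the members was 20.4% in Sal-exposed and 8.01% in control hearts, and 19.3% in Sal-exposed and 21.5% in control livers. The least variable members were *SRSF5A* in Sal-exposed hearts (7.59%), *HNRNPR* in control hearts (2.95%), *SRSF4* in Sal-exposed livers (3.76%) and *SRSF11* in control livers (7.74%). The summed level of the 56 members was 3028 to 3623 CPM in Sal-exposed and 3180 to 3456 CPM in control hearts, and 3270 to 3769 CPM in Sal-exposed and 3350 to 4093 CPM in control livers, and the groups overlapped in both tissues. The 7 members downregulated in the liver had a median genomic span of 7853 bases and the 6 upregulated ones of 15483 bases. Over all genes called in the liver, the medians were 9309 bases for 1065 downregulated and 33354 bases for 1028 upregulated genes. With offsets on genomic span in the fit, 9 of the 13 members kept their liver call, and *HNRNPL*, *SF3B1*, *SF3B4* and *SF3B6* did not (p-adj = 0.0876, 0.0773, 0.0807 and 0.121).

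Other genes of splicing were described from 6 lists with 154 genes in the table, none of them a member. In the heart, 0 of 152 tested were called by edgeR. At an unadjusted p under 0.05 there were 21, or 13.8% beside 17.2% of all genes, and DESeq2 called 6, at a background of 4.85% of genes. In the liver 31 of 151 were called, 12 upregulated and 19 downregulated, or 20.5% beside 15.4% of all genes, and with upper-quartile scaling 16 were upregulated and 16 downregulated. The count was 8 to 41 with 1 liver left out, lowest without Sal-exposed liver 6 and highest without Sal-exposed liver 2. It was also under 21 without Sal-exposed liver 1, 3 or 5 (17, 12 and 12) and without control liver 1, 4 or 5 (19, 12 and 14). Proteins of the snRNP particles outside the symbol rule had 9 of 26 genes called in the liver, 2 upregulated and 7 downregulated, or 34.6% of the list beside the 15.4% of all genes. They included *SNRNP200*, the helicase of the U5 snRNP (log2FC = -1.03 ± 0.19 (SE), p-adj = 0.00551), *USP39*, a factor of the tri-snRNP (log2FC = -1.47 ± 0.29 (SE), p-adj = 0.00751), and *SNRNP27* (log2FC = -0.95 ± 0.22 (SE), p-adj = 0.0127).

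Of 34 genes of the catalytic stage, 5 were called in the liver, or 14.7% beside the 15.4% of all genes, all of them downregulated, among them *EIF4A3* of the exon junction complex (log2FC = -0.67 ± 0.15 (SE), p-adj = 0.0123). Of 43 other RNA-binding regulators of splicing, 23.3% were called. In this list 6 were upregulated, including *TARDBP* (log2FC = 0.73 ± 0.14 (SE), p-adj = 0.00754), and 4 downregulated, including *RBM6* (log2FC = -0.78 ± 0.17 (SE), p-adj = 0.0103). Of 17 SR protein kinases, importers and SR-like factors, 23.5% were called, 3 upregulated and 1, *RSRC1*, downregulated (log2FC = -0.66 ± 0.18 (SE), p-adj = 0.0284). Of 12 proteins with an LSm domain, 16.7% were called, 1 upregulated and 1, *LSM12*, downregulated (log2FC = -1.37 ± 0.33 (SE), p-adj = 0.0168). Of 19 genes of snRNP assembly and import, 5.26% or 1 gene was called, *PRMT5*, whose product methylates Sm proteins (log2FC = -0.63 ± 0.20 (SE), p-adj = 0.0428).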

How the data were processed

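Per the study's methods, the authors used fastp for trimming, STAR for alignment to GRCg7b and RSEM for quantification of Ensembl genes. Versions of these programs are not given in the sources used here. For its DESeq2 comparisons the study also states a correction of batch effects with the sva package. It names neither the function nor the number of surrogate variables, so the svaseq fits here need not match that correction. The deposited table holds whole-number counts per gene without normalization for 15051 genes, and 12 of its 36 columns match no sample and were not used. The authors' tables of their own comparisons hold log2 fold changes, standard errors, Wald statistics, p-values and adjusted p-values from DESeq2, and of these tables only the gene start and end positions in that of the heart were used. RSEM divides reads that fit several genes by estimate, so values of close copies are uncertain.

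The fits used edgeR 4.0.16 on limma 3.58.1, and for alternatives sva 3.50.0 and DESeq2 1.42.0, all under R 4.3.3. Libraries were scaled by TMM, genes were kept by filterByExpr (minimum count 10, minimum total 15), and the quasi-likelihood test was adjusted by Benjamini-Hochberg over all genes tested. Heart and liver were fitted with 12 libraries each, the interaction with 24 and the tissue comparison with 12 controls. The standard error is the absolute log2FC divided by the square root of F. For single values, 6 against 6 libraries were tested by exact two-sided permutation, with 924 possible splits. The fits were run on simulated counts, drawn independently for each library, with changes larger than those of most members. Shifts such as that of the mitochondrial share were not simulated, so that run does not bear on them. No 2 libraries were copies, as each of 276 pairs had a chi-square of at least 12.9 per degree of freedom. Of the 56 members, 54 have their symbol in the RefSeq table of GRCg7b, and positions are those of the deposited files.

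The members and lists were chosen with earlier results of these data known. Members named were the 12 called members of lowest p in the liver, the member of lowest p of each group in each tissue, the 3 of lowest p for the interaction, other called members, and 4 in each direction between control tissues, except 1 member that is counted in all totals but not reported here by itself. From the lists, the 3 called genes of lowest p in a tissue and at most 1 more per list were named. Alternatives were DESeq2, no filter on low counts, RLE and upper-quartile scaling, mitochondrial genes left out, offsets on genomic span, surrogate variables from svaseq, a replicate block, a joint fit of the 24 libraries, an added cut-off of log2FC, and each library left out. Chosen after seeing the data were the mitochondrial share as a covariate and the fits without libraries of high or low share or of few chromosome W counts.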

Additional observations from a re-analysis of the deposited data

Results flagged for a closer look

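In 38 groups of 6 libraries of the members named by the rule, 4 held a library far from the others by Dixon's test, where chance gives about 1 in 20. Another 2 were found in *HNRNPKL*, which was singled out after its values had been seen, so the rate of chance does not apply to it. The libraries were *HNRNPKL* in Sal-exposed heart 3 (0.241 CPM, the others 30.9 to 32.7) and in Sal-exposed liver 3 (0 CPM, the others 21.1 to 26.1), *PRPF8* in Sal-exposed liver 5 (105.0 CPM, the others 140.4 to 156), *SF3B6* in Sal-exposed liver 4 (13.8 CPM, the others 3.83 to 6.41), *SNRPA1* in Sal-exposed heart 2 (45.9 CPM, the others 22.8 to 30.4) and *SNRPA1* in control liver 6 (54.6 CPM, the others 17.8 to 29.0). Without control liver 6, the log2FC of *SNRPA1* in the liver was the smallest of the fits that left out 1 library, -0.34.

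The effect of Sal differed between liver and heart by the interaction test of edgeR for 16 members, 1 of which is not given here. The liver log2FC exceeded the heart log2FC by 2.11 for *SRSF2*, 1.07 for *SRSF10*, 1.03 for *PRPF6*, 0.80 for *SF3B1*, 0.77 for *HNRNPA2B1* and 0.49 for *SRSF5A*. The difference was -2.26 for *SF3B6*, -2.08 for *SF3A2*, -1.33 for *SF3B4*, -1.07 for *SNRPA1*, -1.03 for *PRPF3*, -0.85 for *PRPF8*, -0.84 for *SF3B5*, -0.79 for *SRSF4* and -0.65 for *HNRNPL*.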

How the results depend on the processing

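The 43 log2FC values of the members named by the rule kept their direction under every alternative run. Their size did not always hold, since with svaseq the liver log2FC was -0.11 for *SF3B6*, -0.32 for *SF3B4* and -0.54 for *SF3A2*. DESeq2 and svaseq each called 5 members in the heart, and 6 and 10 genes of the other splicing lists, at backgrounds of 4.85% and 7.34% of all genes. With svaseq, 0 members and 0 list genes were called in the liver and 9 members and 1006 of all genes for the interaction, among them 8 of the 16 members called before. With an absolute log2FC of at least 1 as well, 3 members and 5 list genes were called in the liver, 8 members and 1548 of all genes for the interaction, and 13 members and 7179 of all genes between control tissues. The replicate numbers were not taken to pair the samples, since the labels do not say that they do and not every correlation of same-numbered libraries was above 0.1. The correlations lay between -0.17 and 0.47 and were above 0.1 in 4 of 6 pairs of Sal-exposed heart and liver and in fewer of the other groups. In the pairs of Sal-exposed heart and liver, 5 of 6 libraries correlated best with their own number, a hint from the data and not from the design. In the fits of heart and of liver, the replicate block joined Sal-exposed and control libraries of the same number, which are different birds. In the interaction and tissue fits it joined heart and liver libraries of the same number. With the block, 7 members (3 upregulated, 4 downregulated), 8 list genes and 1009 of all genes were called in the liver and 0 members in the heart. There were 16 for the interaction (15 of the 16 called before, without *SRSF4*, -0.71, p-adj = 0.0551), and 30 between control tissues. Of all genes, 0 were called in the heart with the block, 2542 for the interaction and 9252 between control tissues. The median log2FC of the members in the heart was -0.0145 with upper-quartile scaling and -0.0202 with svaseq, and in the liver 0.13 with svaseq. With 1 library left out, the members called numbered 0 to 1 in the heart, 5 to 14 in the liver, 14 to 19 for the interaction and 28 to 35 between control tissues, list genes 0 to 2 in the heart and 8 to 41 in the liver, and the medians were -0.0010 to 0.06 in the heart and -0.08 to 0.02 in the liver. The cause of these changes was not tested. At this depth the only member with under 10 counts in a library was *HNRNPKL*.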
